A study of Mus musculus with 9 samples.

Results

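Cyclins are the regulatory subunits that switch on cyclin-dependent kinases (CDKs), and their rise and fall orders the phases of the cell cycle. D-type cyclins bind CDK4 and CDK6 and link growth signals to the phosphorylation of RB, E-type cyclins act with CDK2 at the entry into S phase, cyclin A2 acts with CDK2 and CDK1 through S phase and G2, and B-type cyclins drive mitosis with CDK1. Cyclin F is the substrate receptor of a ubiquitin ligase and is not known to activate a CDK, and cyclin G2 is known from arrested cells. Mouse embryonic stem (ES) cells divide rapidly with a short G1 phase.

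The 10 genes described here, Ccnd1, Ccnd2, Ccnd3, Ccne1, Ccne2, Ccna2, Ccnb1, Ccnb2, Ccnf and Ccng2, were taken by symbol from a table of read counts for 20189 genes, and all 10 were present. The cells were wild-type E14 mouse ES cells, 1 established line, kept with serum and leukemia inhibitory factor (LIF), and the cultures analysed here had spent 3 h without threonine (Thr-starved), 3 h without cysteine (Cys-starved) or in medium with all amino acids (unstarved), with 3 poly(A) RNA-seq libraries per condition. No allele was changed. The labels describe a starvation medium with dialyzed serum and LIF, but name only Arg and Leu as the amino acids left out of it, and the medium of these 9 cultures is not given in the sources used here beyond that. The study asked whether the loss of Thr or Cys, amino acids that ES cells need beyond translation, gives the transcriptional response known from other single amino acids. Both starvations were compared with the same 3 unstarved libraries, so these comparisons share their controls. Whether the unstarved cultures had a matched change of medium is not given, and its lack could not be told apart from starvation.

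The libraries held between 48763102 and 74962733 counts, each library correlated more closely with its own group (r of 0.998 or more across genes) than with any other library (at most 0.991), and all 12 ES cell markers examined were expressed in every library, with a summed level of 5016 to 5095 CPM, the counts of a gene scaled to a common library total, in unstarved, 4720 to 4787 CPM in Cys-starved and 5395 to 5501 CPM in Thr-starved cells. The summed levels of 7 of 10 listed fibroblast markers (20.9 to 33.9 CPM) and of 12 markers of differentiated lineages (27.6 to 34.7 CPM) were low. Dcn, Lum and Postn were not among the genes tested, which needed at least 1 count over the 9 libraries. The fibroblast sum was 32.7 to 33.9 CPM in unstarved, 26.9 to 31.4 CPM in Cys-starved and 20.9 to 22.8 CPM in Thr-starved cells, and the lineage sum 27.6 to 28.9, 33.6 to 34.2 and 31.9 to 34.7 CPM. Both sums and that of the ES cell markers thus moved with starvation, with no overlap between unstarved and starved libraries. A marker at 0 in all libraries would not have been among the genes tested. Each tested marker had counts in at least 1 library of every condition, and the part of other cells in the results was not tested. The starvations were done in triplicate per the methods, which do not say whether each replicate was a culture kept separately before that, so the p-values measure the spread between these libraries, which may be technical. Levels below are CPM after TMM scaling, which adjusts each library's total for its composition. A gene is said to have risen or fallen, or to be called, where the quasi-likelihood F test of edgeR passed 0.05 after Benjamini-Hochberg adjustment over all 20143 genes tested. All 10 cyclins were among these. The 12 ES cell markers did not move together. With Thr starvation 7 rose and 5 fell, where 31.1% of all genes were called higher and 31.9% lower. Utf1 fell the most, from 307 to 95.1 CPM. With Cys starvation 3 rose and 9 fell, where the shares over all genes were 17.5% and 18.8%. In RNA from whole cultures, fewer cells in a phase and less RNA per cell cannot be told apart.

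Within 3 h of Thr starvation the D-type cyclins and Ccne1 fell, while Ccna2, Ccnb2 and Ccng2 rose. Ccnd1 and Ccnd2 fell to folds of 0.272 and 0.292 of the unstarved level, and Ccnd3 and Ccne1 to 0.705 and 0.693. Ccna2, Ccnb2 and Ccng2 rose to folds of 1.46, 1.24 and 1.57, while Ccnb1 fell to 0.927. Ccne2 and Ccnf did not pass the test. With Cys starvation Ccnd1, Ccnd3, Ccne1 and Ccnb1 fell to folds between 0.873 and 0.923, and Ccna2 and Ccnb2 were at folds of 0.997 and 1.01 and did not pass the test. Thr starvation gave 3 cyclins called higher and 5 called lower of 10, where 31.1% of all genes tested were called higher, 31.9% lower and 63% in either direction. Cys starvation gave 1 called higher and 4 called lower, where 17.5% and 18.8% of all genes were called so and 36.3% in all. With so many genes called, the number of cyclins called says little by itself, and the size and direction of each are given below.

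The regulatory sequence of the B-type cyclins and of Ccnf is shown first, since Ccnb1 and Ccnb2, paralogs that act at the same step, moved in opposite directions with Thr starvation. Each sequence runs 5′ to 3′ on the gene's strand from 250 bases before to 50 bases after the annotated start, as given by RefSeq for GRCm38.p6, and RefSeq windows were matched for Ccnd3, Ccne1, Ccnb1, Ccnb2, Ccnf and Ccng2. Capitals mark the CCAAT box (CCAAT), the site of the factor NF-Y, and the cell cycle homology region element (CHR, searched as TTTGAA and TTCGAA), through which genes of G2 and mitosis are held down in G1. The windows lie on the minus strand at chr13:100786437-100786736 for Ccnb1, chr9:70421505-70421804 for Ccnb2 and chr17:24251360-24251659 for Ccnf.
Ccnb1: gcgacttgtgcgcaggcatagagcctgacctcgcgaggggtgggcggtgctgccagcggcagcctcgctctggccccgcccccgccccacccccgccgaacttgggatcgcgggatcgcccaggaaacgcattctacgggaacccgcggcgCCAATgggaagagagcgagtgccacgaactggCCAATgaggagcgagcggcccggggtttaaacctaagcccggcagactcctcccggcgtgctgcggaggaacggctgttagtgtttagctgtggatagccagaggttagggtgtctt
Ccnb2: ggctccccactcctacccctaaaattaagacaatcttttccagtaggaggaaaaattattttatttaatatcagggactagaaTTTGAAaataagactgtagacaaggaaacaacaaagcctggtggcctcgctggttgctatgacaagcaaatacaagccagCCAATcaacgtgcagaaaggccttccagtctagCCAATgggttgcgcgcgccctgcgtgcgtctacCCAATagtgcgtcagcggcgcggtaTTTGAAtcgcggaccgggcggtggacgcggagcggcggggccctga
Ccnf: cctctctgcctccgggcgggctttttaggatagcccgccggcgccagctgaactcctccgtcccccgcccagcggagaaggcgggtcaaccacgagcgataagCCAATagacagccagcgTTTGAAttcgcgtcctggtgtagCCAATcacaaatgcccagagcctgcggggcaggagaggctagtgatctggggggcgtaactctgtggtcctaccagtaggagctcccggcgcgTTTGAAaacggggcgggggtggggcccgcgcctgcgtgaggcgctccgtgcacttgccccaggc
The Ccnb2 window holds 3 CCAAT boxes, at -87, -54 and -21 from the start and thus 33 bases apart, and 2 CHR letters, at -167 and 4. Ccnb1 holds 2 CCAAT boxes 32 bases apart, at -99 and -67, and no match to TTTGAA or TTCGAA in this window. Other forms of the CHR were not searched. Ccnf holds 2 CCAAT boxes 40 bases apart, at -147 and -107, and CHR letters at -130 and -14. Of all 32851 promoter windows in the table, 37.4% held a CCAAT box and 19.2% a CHR element on either strand. The windows of Ccne1 and Ccng2 held neither. Ccnd3 has windows 1 and 2, of which window 2 held a CCAAT box, at -108, and neither held the CHR letters. GTAAACA, searched for the FOXO motif (in 3.65% of windows), matched on the opposite strand in Ccnd3 window 1, at -243. GGCGG, searched for the CDE motif (in 48.8%), matched in every window of these genes. The letters TTTGGCGC, TTTCCCGC, TTTGCCGC and TTTCGCGC, searched for E2F (in 2.27% of windows), had no match in any window of these genes. Nor had TGATGCAA, searched for C/EBP-ATF (in 0.895%). Other forms of these motifs were not searched, and no windows of Ccnd1, Ccnd2, Ccne2 and Ccna2 were available to search. A match of letters is no proof of a site, and whether any match bears on the changes in level was not tested.

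Of the 10 genes, Ccnd1 and Ccnd2 of the D-type cyclins changed the most with Thr starvation. Ccnd1 (ENSMUSG00000070348; chr7:144929931-144939925, minus strand) encodes cyclin D1. Its level was 114, 119.6 and 117 CPM in the 3 unstarved libraries, 101, 103 and 102 CPM in the Cys-starved libraries, and 30.1, 33.7 and 31.7 CPM in the Thr-starved libraries. The 3 groups do not overlap, and the Thr-starved libraries sit far below both others. The log2 fold change was -1.88 (SE 0.036) with Thr starvation, with an adjusted p of 1.72e-21, and -0.19 (SE 0.032) with Cys starvation, with an adjusted p of 4.48e-05. Set directly against the Cys-starved libraries, the Thr-starved ones had a Ccnd1 log2 fold change of -1.68, a fold of 0.312 (adjusted p = 1.82e-20). LTO1, a gene on the opposite strand that shares 23.4% of the exon bases of Ccnd1, moved the other way with Thr starvation, with a log2 fold change of 0.89. Whether the counting used the strand is not given in the sources used here, and reads in the shared bases may stand with either gene.

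Ccnd2 (ENSMUSG00000000184; chr6:127125162-127152193, minus strand), which encodes cyclin D2, was the scarcest of the 3 D-type transcripts. It was at 21.9, 24.2 and 21.5 CPM in unstarved cells, at 26.0, 25.6 and 23.3 CPM after Cys starvation, and at 5.14, 6.63 and 7.69 CPM after Thr starvation. Only the Thr-starved libraries stand apart. The log2 fold change with Thr starvation was -1.77 (SE 0.089, adjusted p = 4.67e-14), close to that of Ccnd1. With Cys starvation it was 0.15 (95% interval -0.0080 to 0.30, adjusted p = 0.137), which passed the test when only these 2 groups were fitted (0.15, adjusted p = 0.029) and with library totals in place of TMM (0.21, adjusted p = 0.0309). The direct comparison gave -1.92 (SE 0.088, adjusted p = 1.14e-14).

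Ccnd3 (ENSMUSG00000034165; chr17:47505051-47599691, plus strand), the gene of cyclin D3, fell less. Its levels were 155, 163 and 158 CPM in unstarved, 143, 136 and 137 CPM in Cys-starved and 109, 117 and 109 CPM in Thr-starved libraries. They step down from unstarved to Cys to Thr with no overlap. The log2 fold changes were -0.51 (SE 0.030, adjusted p = 1.23e-12) with Thr starvation, -0.20 (SE 0.030, adjusted p = 1.76e-05) with Cys starvation and -0.31 (SE 0.030, adjusted p = 6.73e-09) between the starvations. After offsets for GC content and transcript length were added, the first became -0.29 (adjusted p = 5.72e-10) and the last -0.079 (adjusted p = 0.0142), still called. Ccnd3-ps, a pseudogene 97.9% identical over the part that matches, took between 2.05% and 2.51% of the counts of the pair.

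**Figure D1:**
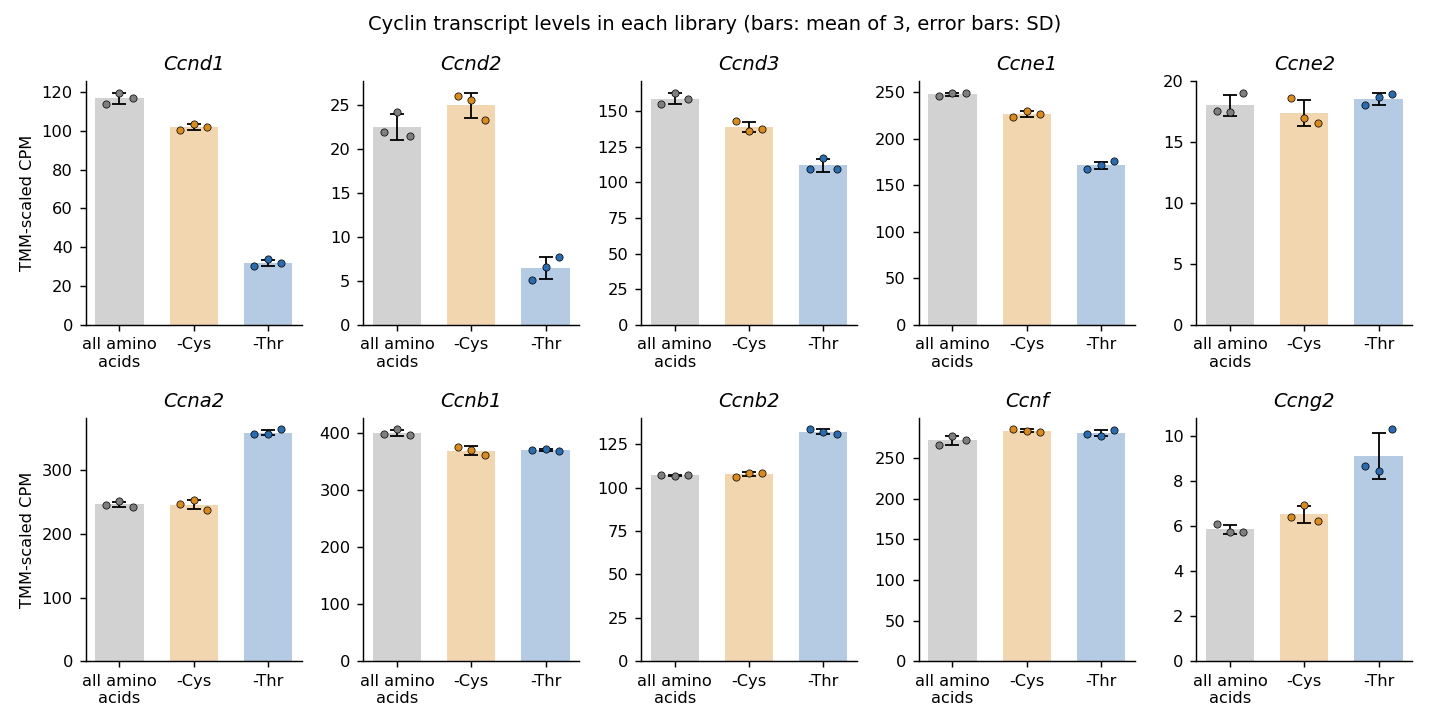
TMM-scaled CPM of the 10 cyclins in medium with all amino acids, without Cys and without Thr (3 h); points are libraries, bars the mean of 3 and error bars the SD, each panel with its own axis from 0. Ccnd1 and Ccnd2 dropped in the Thr-starved libraries to 31.8 and 6.49 CPM on average, while Ccna2 stood at 356 to 364 CPM there against 243 to 251 CPM in unstarved cells.

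Per kb of merged exons, a scale on which genes can be compared, the summed level of the 3 D-type cyclins was 45.3 ± 1.21 CPM per kb (SD, n = 3) in unstarved cells, 40.1 ± 0.309 after Cys starvation and 20.2 ± 0.905 after Thr starvation. Their make-up moved too. Ccnd1 made up 54.6 to 55.0% of the sum in unstarved cells and 52.9 to 54.7% after Cys starvation, but 32.9 to 33.75% after Thr starvation, when Ccnd3 made up 62.3 to 64.25%. Ccnd3 had 39.9 to 40.1% of the sum in unstarved cells. With the length of the longest annotated transcript in place of merged exons, Ccnd3 had the larger share throughout, 54.2% ± 0.077 in unstarved and 75.3% ± 0.841 in Thr-starved cells (SD, n = 3), so which of Ccnd1 and Ccnd3 leads in unstarved cells depends on the length used, and the rise of the Ccnd3 share with Thr starvation does not.

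The E-type pair split. Ccne1 (ENSMUSG00000002068; chr7:38097984-38107534, minus strand) encodes cyclin E1, which activates CDK2. It was at 246, 249 and 249 CPM in unstarved, at 223.5, 229.8 and 227 CPM in Cys-starved and at 168, 171 and 175.5 CPM in Thr-starved libraries, with no overlap between groups. Its log2 fold change was -0.53 (SE 0.024, adjusted p = 6.4e-15) with Thr starvation and -0.13 (SE 0.023, adjusted p = 0.000144) with Cys starvation, and the starvations differed by -0.40 (SE 0.024, adjusted p = 1.06e-12). With library totals in place of TMM the Cys value was smaller, at -0.064 (adjusted p = 0.0318).

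Ccne2 (ENSMUSG00000028212; chr4:11191351-11204779, plus strand), the gene of cyclin E2, stayed at a low level. The libraries gave 17.6, 17.5 and 19.0 CPM without starvation, 18.6, 17.0 and 16.6 CPM without Cys and 18.04, 18.7 and 19.0 CPM without Thr, and all 3 groups overlap. The log2 fold changes were 0.045 with Thr starvation (95% interval -0.070 to 0.16, adjusted p = 0.498) and -0.053 with Cys starvation (95% interval -0.17 to 0.061, adjusted p = 0.502). Of the 10, its Thr value moved the most with GC and length offsets, which turned it to -0.28 (adjusted p = 0.000101) and called the Cys value, at -0.16 (adjusted p = 0.0266). Its longest transcript has 35.0% GC, the lowest of the 10, and its exons share 17.4% of their bases with Ints8 on the opposite strand, which fell with both starvations (-0.48 and -0.29). Summed per kb, the E-type cyclins were at 98.2 ± 0.799 CPM per kb in unstarved, 90.2 ± 0.963 in Cys-starved and 69.8 ± 1.59 in Thr-starved cells (SD, n = 3). Ccne2 made up 5.09 to 5.51% of that sum in unstarved cells and 7.57 to 7.69% after Thr starvation.

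Ccna2 (ENSMUSG00000027715; chr3:36564865-36572150, minus strand), the only A-type cyclin among the 10, rose with Thr starvation. It was at 246, 251 and 243 CPM in unstarved cells, at 246, 252 and 238 CPM after Cys starvation and at 356, 356 and 364 CPM after Thr starvation. The unstarved and Cys-starved libraries overlap throughout, and each Thr-starved library lies above every other. The log2 fold change was 0.54 with Thr starvation (SE 0.024, adjusted p = 6.2e-15), -0.0045 with Cys starvation (95% interval -0.055 to 0.046, adjusted p = 0.915) and 0.55 between the starvations (SE 0.024, adjusted p = 6.88e-15). Exosc9, which shares 12.5% of the Ccna2 exon bases on the opposite strand, fell with both starvations (-0.14 and -0.15).

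Ccnb1 and Ccnb2 encode cyclins B1 and B2, the CDK1 partners of mitosis. Ccnb2 (ENSMUSG00000032218; chr9:70407692-70421547, minus strand) followed Ccna2. It was at 107.1, 106.6 and 107.1 CPM in unstarved, 106.2, 108.3 and 108.2 CPM in Cys-starved and 133, 132 and 131 CPM in Thr-starved libraries. Each Thr-starved library lies above every other, and the unstarved and Cys-starved groups overlap. The log2 fold change was 0.31 (SE 0.025, adjusted p = 2.66e-10) with Thr starvation, 0.0086 (95% interval -0.043 to 0.061, adjusted p = 0.832) with Cys starvation and 0.30 (SE 0.025, adjusted p = 4.66e-10) between them.

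Ccnb1 (ENSMUSG00000041431; chr13:100778650-100786570, minus strand) was the most abundant of the 10 in CPM and did not follow its paralog. Its levels were 398, 407 and 396 CPM in unstarved, 377, 370.2 and 362 CPM in Cys-starved and 371, 372 and 369 CPM in Thr-starved libraries. Both starved groups lie below the unstarved libraries and overlap each other. It fell by 0.11 on the log2 scale with Thr starvation (SE 0.021, adjusted p = 1e-04) and by 0.12 with Cys starvation (SE 0.021, adjusted p = 0.000153), and the starvations differed by 0.0055 (95% interval -0.039 to 0.050, adjusted p = 0.842). GC and length offsets took the Thr value to -0.27 (adjusted p = 4.13e-12) and the difference between the starvations to -0.15 (adjusted p = 1.83e-07), and with library totals in place of TMM the Cys value was -0.052 (adjusted p = 0.0523). Near-identical pseudogenes hold counts too: Ccnb1-ps matches 51.7% of the longest Ccnb1 transcript at 99.2% identity. It and the other copies, 4 in all, together held 36.9 to 38.3% of the counts of Ccnb1 and its copies. Of the 4, Gm7483 matches only 6.43% of that transcript, at 95.6% identity. With the copies added to Ccnb1, a choice made after seeing the data, the log2 fold change was -0.13 for Thr (adjusted p = 1.6e-06), and that for Cys was -0.12 (adjusted p = 2.38e-05).

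Summed per kb, the B-type cyclins were at 165 ± 1.16 CPM per kb in unstarved, 158 ± 1.24 in Cys-starved and 174 ± 1.05 in Thr-starved cells (SD, n = 3). With the longest transcript as the length the sums lay closer, at 231 ± 2.09, 219 ± 2.41 and 235 ± 1.25. The copies of Ccnb1 are left out of these sums, and were lower in both starvations, at 246 CPM in unstarved, 224 in Cys-starved and 217 in Thr-starved cells. The share of Ccnb2 was 41.9 to 42.7% in unstarved, 43.7 to 45.2% in Cys-starved and 49.4 to 49.8% in Thr-starved libraries, without counting the copies of Ccnb1. The share rises in that order with no overlap, also with the longest transcript as the length (30.3% ± 0.352, 32.1% ± 0.647 and 36.7% ± 0.185; SD, n = 3).

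**Figure D2:**
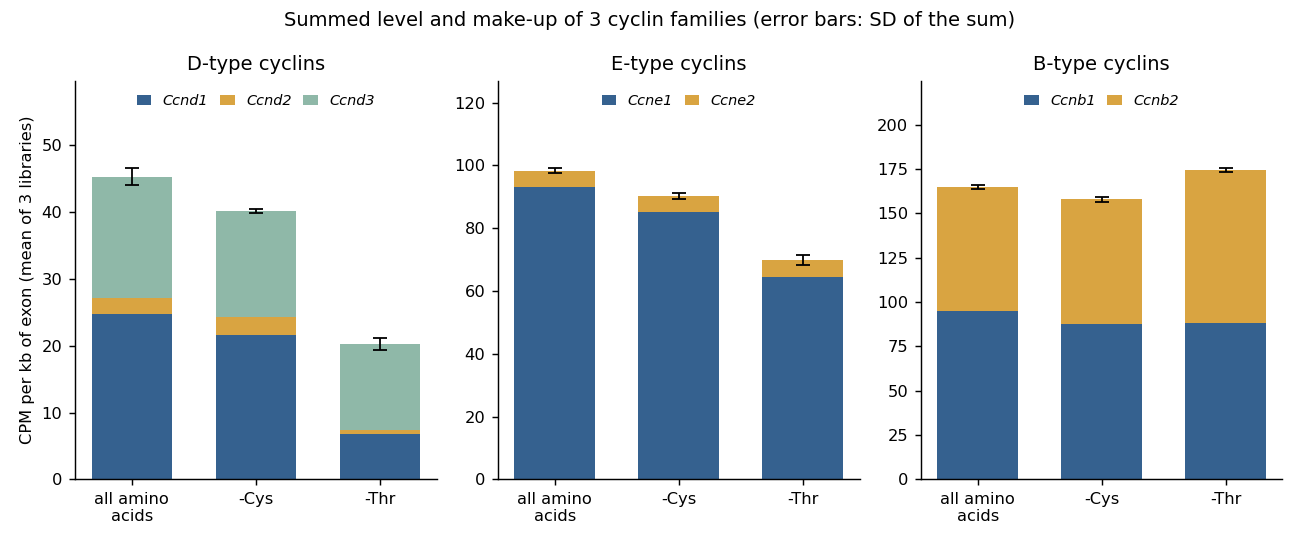
Mean CPM per kb of merged exons of the D-type, E-type and B-type cyclins in medium with all amino acids, without Cys and without Thr; stacked colours are the genes and error bars the SD of the sum over 3 libraries. The D-type sum falls from 45.3 to 20.2 CPM per kb with Thr starvation as the Ccnd1 part shrinks. The B-type sum, without the copies of Ccnb1, stands at 174 there against 165 in unstarved cells. With the longest transcript as the length it was 235 against 231.

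Ccnf (ENSMUSG00000072082; chr17:24222198-24251484, minus strand) encodes cyclin F, which targets proteins for degradation in G2. It was at 266, 278 and 272 CPM in unstarved, 285, 284 and 282 CPM in Cys-starved and 280.0, 277 and 284 CPM in Thr-starved libraries. The Cys-starved libraries lie just above the unstarved ones and the Thr-starved libraries overlap both. The log2 fold change was 0.060 (SE 0.022, adjusted p = 0.0393) with Cys starvation and 0.045 (95% interval -0.0012 to 0.092, adjusted p = 0.084) with Thr starvation. The Cys call rests on small margins: it was lost in 12 of 20 alternative fits, 6 of them fits without 1 library (each Cys-starved library, Thr-starved library 1 and unstarved libraries 1 and 3), where the adjusted p ran from 0.0565 to 0.21. The Thr value became 0.17 (adjusted p = 3.6e-08) with GC and length offsets and passed with DESeq2 (0.052, adjusted p = 0.0368).

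Ccng2 (ENSMUSG00000029385; chr5:93267257-93276231, plus strand), the gene of cyclin G2, was the scarcest of the 10 in CPM in unstarved cells. It was at 6.09, 5.74 and 5.73 CPM there, at 6.41, 6.94 and 6.22 CPM after Cys starvation and at 8.65, 8.43 and 10.3 CPM after Thr starvation, and the groups do not overlap. The rise with Thr starvation was 0.65 on the log2 scale (SE 0.086, adjusted p = 6.26e-07), and the starvations differed by 0.49 (SE 0.084, adjusted p = 2.19e-05). The Cys value, 0.16 (95% interval -0.026 to 0.34, adjusted p = 0.181), did not pass.

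**Figure D3:**
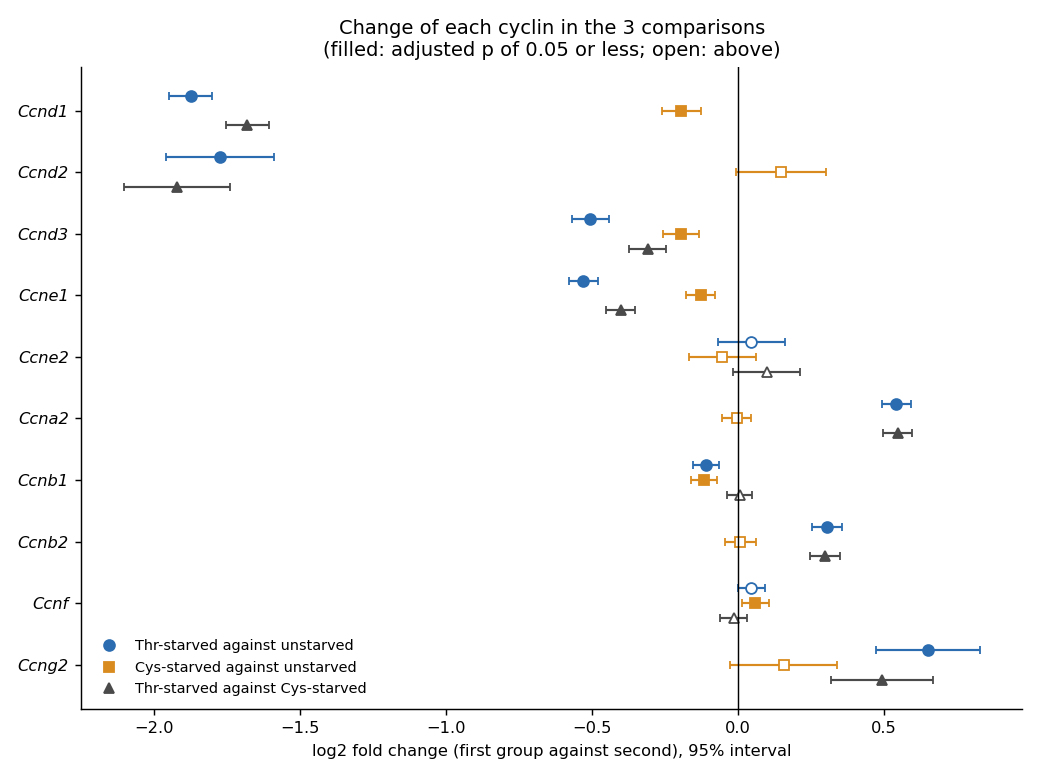
Log2 fold change of each cyclin with its 95% interval for Thr-starved against unstarved (circles), Cys-starved against unstarved (squares) and Thr-starved against Cys-starved cells (triangles); filled symbols passed an adjusted p of 0.05 and open ones did not. Thr values run from -1.88 for Ccnd1 to 0.65 for Ccng2, and Cys values stay between -0.20 and 0.16.

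Counted over the 10 cyclins, the libraries of the 2 groups did not overlap for 8 with Thr starvation (66.5% of all genes tested), for 6 with Cys starvation (46.4% of all genes) and for 7 between the starvations (65.8%). Between Thr and Cys starvation 3 cyclins were higher (Ccna2, Ccnb2 and Ccng2; 30.4% of all genes), 4 lower (Ccnd1, Ccnd2, Ccnd3 and Ccne1; 31.6%) and 3 not called, with 62% of all genes called. The median log2 fold change of the 10 was -0.032 with Thr and -0.029 with Cys starvation, beside -0.016 and 0.0068 over all genes. The split of the Cys calls depends on the scaling: 48.2% of all calls were higher here, 36.8% with the deposited size factors and 68% with library totals alone. Under those 2 scalings 0 and 3 of the 10 cyclins were called higher with Cys starvation, the 3 being Ccnd2, Ccnb2 and Ccnf. The directions and calls of the 8 cyclins called with Thr starvation held in all 20 alternative fits. With a minimum of 0.5 for the size of the log2 fold change, 2 were called higher and 4 lower, since Ccnb2 (0.31) and Ccnb1 (-0.11) lie under it. At that minimum 3091 of all 20143 genes tested were called higher and 3429 lower with Thr starvation.

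The order of the cyclins by level changed with Thr starvation. In unstarved cells the levels per kb of merged exons ran from Ccnb1 (94.9 CPM per kb) and Ccne1 (93.1) over Ccnb2 (69.9), Ccna2 (60.3), Ccnf (34.9), Ccnd1 (24.8), Ccnd3 (18.1) and Ccne2 (5.16) to Ccnd2 (2.40) and Ccng2 (1.07), with no overlap between the libraries of neighbours. After Thr starvation Ccnb1 (88.0) and Ccna2 (87.9) overlapped at the top, followed by Ccnb2 (86.3) and Ccne1 (64.4). Ccnd3 (12.8) then stood above Ccnd1 (6.76), and Ccng2 (1.67) above Ccnd2 (0.689), which came last. After Cys starvation the order was that of unstarved cells, with Ccnb1 (87.6) and Ccne1 (85.2) overlapping. With the longest transcript as the length, Ccna2 stood above Ccnb2 and Ccnd3 above Ccnd1 in all 3 conditions, and Ccnb1 stood clear of Ccna2 after Thr starvation.

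The genes that act with the cyclins were read from lists chosen with earlier results of these data known, and all counts below come from the same fit. Of 18 CDK genes tested, 6 rose and 7 fell with Thr starvation, where 31.1% of all genes were called higher and 31.9% lower, and 4 rose and 3 fell with Cys starvation, where the shares over all genes were 17.5% and 18.8%. These counts are near those shares. The kinases that bind the cyclins of this report, named after their values were seen, moved otherwise: Cdk4 (cyclin D) was at 430.5 ± 4.41 CPM with Thr starvation and 437 ± 4.01 in unstarved cells (SD, n = 3; log2 fold change -0.022, adjusted p = 0.356), Cdk6 fell (-0.25), and Cdk2 and Cdk1, partners of cyclins E, A and B, rose (0.41 and 0.23). With Cys starvation Cdk1 fell (-0.17). By the rule for named genes, Cdk20 rose with both starvations (0.92 and 1.00), Cdk18 fell with Thr starvation (-0.69) and Cdk19 with Cys starvation (-0.39).

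CDK inhibitors block the kinases that the cyclins activate. Of 7 tested, 3 rose and 0 fell with Thr starvation in edgeR, where 63% of all genes were called in either direction (31.1% higher, 31.9% lower). They were Cdkn1a, encoding p21, at 114 CPM against 35.9 CPM in unstarved cells (log2 fold change 1.66), Cdkn1b, encoding p27 (0.74), and Cdkn2d (0.68). With Cys starvation 2 rose, Cdkn2d (0.35) and Cdkn1b (0.20), and 2 fell, Cdkn1c (-0.31) and Cdkn1a (-0.24), where 17.5% of all genes were called higher and 18.8% lower. The regulators of CDK phosphorylation and their partners counted 6 higher and 1 lower of 11 with Thr starvation. There Cdc14a rose (0.80), and Cdc25b, a phosphatase that activates CDK1, fell (-0.32). The other CDC25 phosphatases, Cdc25a (0.50) and Cdc25c (0.51), named after their values were seen, rose. With Cys starvation 2 of the 11 rose, led by Mnat1 of the CDK-activating kinase (0.16), and 2 fell, led by Cks2 (-0.28).

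Downstream, the RB and E2F network, the switch that D-type and E-type cyclins throw, had 12 of 19 genes higher and 4 lower with Thr starvation (median 0.22), where 31.1% of all genes were called higher and 31.9% lower and the median was -0.016. Rbl2, a pocket protein of quiescent cells, rose (0.94), and E2f2, an activator of S phase genes, fell the most, from 22.6 to 5.56 CPM (-2.03). E2f2 also fell with Cys starvation (-0.46), when 5 of 19 genes of the list rose, led by Lin37 (0.19), and 6 fell (17.5% and 18.8% of all genes). Of 20 genes of the G1/S transition 15 were higher and 2 lower with Thr starvation (median 0.40), beside the same shares of all genes, with Orc1 down (-0.22), although Ccnd1, Ccnd2, Ccnd3 and Ccne1 fell in the same libraries. With Cys starvation 5 of these 20 rose and 8 fell, led by Pcna (-0.18).

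Mitotic genes counted 18 higher and 5 lower of 25 with Thr starvation (median 0.24), where 31.1% of all genes were called higher and 31.9% lower. Prc1, which bundles spindle microtubules, rose by 0.96 on the log2 scale, and Bub1b of the spindle checkpoint fell (-0.67). With Cys starvation 10 of the 25 rose, led by Cenpe (0.31), and 6 fell, led by Kif11 (-0.29), where 17.5% of all genes were called higher and 18.8% lower. The ubiquitin ligases that degrade cyclins, such as SCF and the anaphase-promoting complex, gave 9 higher and 10 lower of 27 with Thr starvation, near the shares of all genes, among them Cul3 (0.47), and Fbxo31, which targets cyclin D1 and fell from 63.4 to 32.2 CPM (-0.98). With Cys starvation 3 of the 27 rose, led by Cdc16 (0.16), and 16 fell, led by Cdc26 (-0.37), both subunits of the anaphase-promoting complex. The median of this list with Cys starvation was -0.10, beside 0.0068 over all genes.

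**Figure D4:**
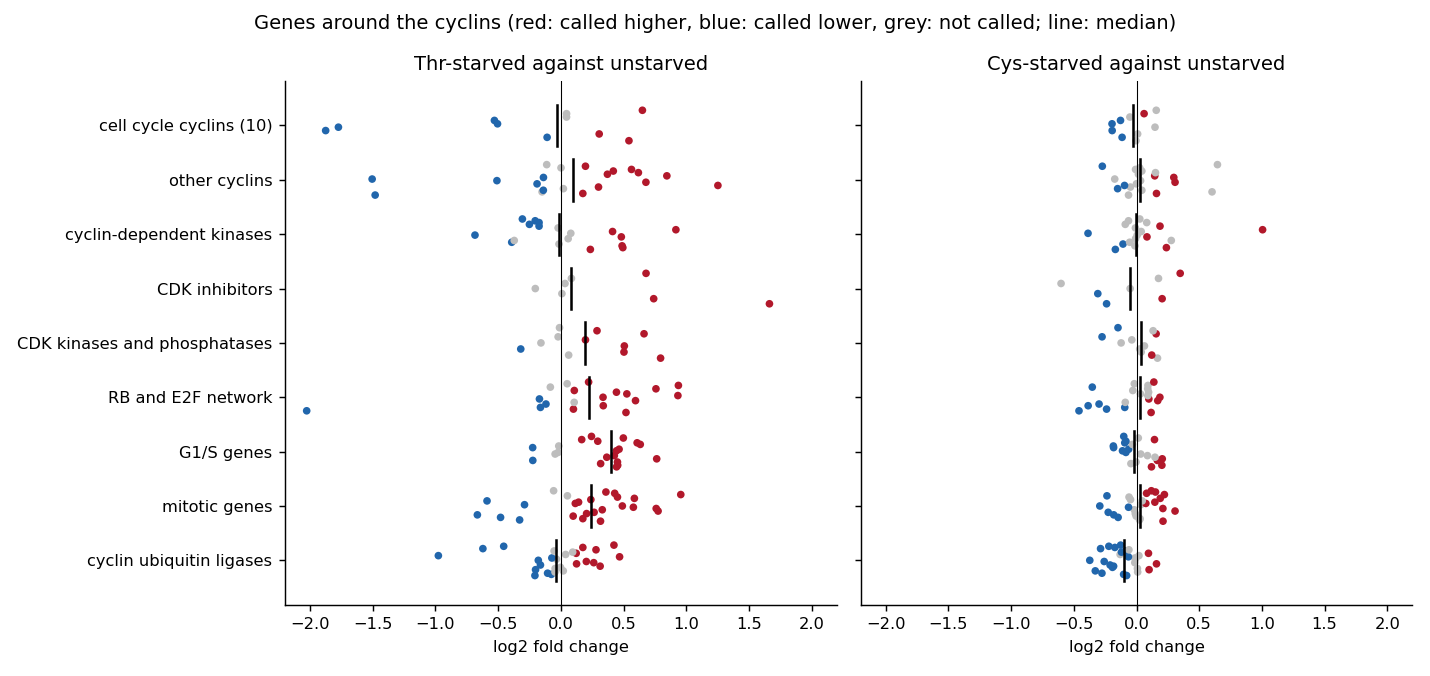
Log2 fold change of every tested gene of the 10 cyclins and of 8 lists around them with Thr starvation (left) and Cys starvation (right); red genes were called higher, blue lower and grey neither, and black lines are list medians. With Thr starvation the medians of G1/S genes (0.40), mitotic genes (0.24) and the RB and E2F network (0.22) lie furthest right of 0. Those of CDK kinases and phosphatases (0.20), other cyclins (0.097) and CDK inhibitors (0.084) also lie right of it. Those of CDKs (-0.018) and cyclin ubiquitin ligases (-0.035) lie left. With Cys starvation all list medians lie between -0.10 and 0.037.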

How the data were processed

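Both deposited tables were read. The authors mapped paired-end reads to GRCm38 (Ensembl) with STAR 2.7.4a, used HTSeq for read counts per gene, and deposited the raw counts; the strand setting of the counting is not given in the sources used here. The signal values of the other deposited table are the same counts divided by 1 DESeq2 size factor per library, and served only as an alternative scaling.

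Differential expression was tested on the counts with edgeR 4.0.16 in R 4.3.3: TMM, genes with at least 1 count over the 9 libraries, 1 quasi-likelihood fit of all 9 libraries, Benjamini-Hochberg adjustment per comparison at 0.05. The common biological coefficient of variation was 3.53%. Intervals are 95% intervals of the fit. The code was tested on simulated data. Same-group libraries differed by 2.70 to 10.0 times counting noise (chi-square per degree of freedom), so none was the same library deposited again; that spread may still be technical.

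Positions, exon lengths, overlaps and GC content came from GENCODE M21 (GRCm38), which named 20171 of the 20189 genes, and near-identical copies from blastn. Levels between genes are CPM per kb of merged exons. Promoter windows came from RefSeq, and protein sequences were not used here. No correction was made for length in tests.

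The 10 cyclins and all lists were chosen with earlier results of these data known. Named were all 10 cyclins; from each list the called gene with the largest increase and decrease per starvation, at a mean of at least 5 CPM and with groups that do not overlap; and for each cyclin the most alike gene over the 9 libraries (Pearson's r of log2(CPM + 0.5)). Alternatives were DESeq2 1.42.0, RLE, the deposited size factors, library totals alone, filterByExpr, a mean of at least 5 CPM, fits of the 2 groups compared, the replicate number as a block, GC and length offsets (loess, span 0.3) with and without the block, an adjusted p of 0.01, a minimum of 0.5 for the size of the log2 fold change, leaving out each library and the longest transcript as the length. Adding the counts of near-identical copies was chosen after seeing the data. A gene of the G1/S list that the rule would name is not reported here.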

Additional observations from a re-analysis of the deposited data

How the results depend on the processing

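Among the recomputed log2 fold changes of single cyclins, 554 kept direction and call, 13 lost the call and 13 gained one without a change of sign. A further 20, none of them called in the report, changed sign. Some of these were called in the alternative fit, such as Ccnb1 (Thr against Cys) with library totals alone (edgeR, adjusted p = 0.00278). Ccne2 (Thr) and Ccnb1 (Thr against Cys) were called with GC and length offsets too. Those 20 values were as follows. With the deposited size factors Ccnb2 (Cys) was -0.033 and Ccnf (Thr against Cys) 0.029; with library totals alone Ccne2 (Cys) was 0.011, Ccna2 (Cys) 0.059 and Ccnb1 (Thr against Cys) -0.076; with a mean of at least 5 CPM Ccna2 (Cys) was 0.017 and Ccnb1 (Thr against Cys) -0.034. In the fit of 2 groups Ccna2 (Cys) was 0.00012, with GC and length offsets Ccne2 was -0.28 (Thr) and -0.12 (Thr against Cys), Ccnb1 -0.15 and Ccnf 0.13 (both Thr against Cys), the same to 2 decimals with the replicate block added, and with the copies added Ccnb1 (Thr against Cys) was -0.014. Without 1 library, Ccna2 (Cys) ran from -0.025 to 0.018 (0.0081 without unstarved library 2) and Ccnb1 (Thr against Cys) from -0.0095 to 0.019. The count of cyclins called higher with Cys starvation, 1 in the report, was 0 with RLE, the deposited size factors, filterByExpr, the replicate block, GC and length offsets with or without the block, and an adjusted p of 0.01, 3 with library totals alone, 2 with 2 groups, and 0 to 1 without 1 library. With a log2 fold change of at least 0.5, genes called numbered 6520 (Thr), 1070 (Cys) and 5907 (Thr against Cys), with 2 cyclins higher and 4 lower with Thr starvation (3 and 5 in the report), 0 higher and 0 lower with Cys starvation, and 1 higher and 2 lower between the starvations. The causes of these shifts were not tested. Same-numbered libraries did not deviate together (r from -0.24 to 0.11), but deviations from means of 3 libraries cannot exclude a weak pairing. The replicate block gave 12488, 7063 and 12334 genes called in place of 12689, 7313 and 12488. Of the 30 cyclin tests it changed only the call of Ccnf with Cys starvation (edgeR, adjusted p = 0.066). Precision was lowest for the scarce Ccng2 and Ccnd2, with SEs of 0.075 to 0.089.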

Other observations

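Of 20 further cyclins and cyclin partners tested, 10 rose and 6 fell with Thr starvation, where 31.1% of all genes were called higher and 31.9% lower, and 4 rose and 3 fell with Cys starvation, near the 17.5% and 18.8% of all genes. Ccng1, encoding cyclin G1, a known p53 target, stood at 172 CPM on average without starvation, 161 CPM after Cys and 409 CPM after Thr starvation, with a log2 fold change of 1.25 with Thr and -0.10 with Cys starvation and of 1.35 between them (adjusted p = 5.49e-21). Ccni rose with both starvations (0.68 and 0.31), Ccnj fell with Thr starvation (-0.51), and Ccnyl1 went up in Thr-starved (0.20) and down in Cys-starved cells (-0.27), a difference of 0.47 (adjusted p = 7.42e-11).

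Over the 9 libraries, which fall into 3 groups, the levels of the cyclins sort into sets by Pearson's r of log2 values, given as a description. Ccna2 and Ccnb2 ran together (0.99), as did Ccnd1 and Ccne1 (0.99), and Ccnd1 and Ccnb2 ran opposite (-0.99). Among the 11410 genes of 5 CPM or more on average, the gene most alike was Klf13 for Ccnd1, Idh2 for Ccnd2, Sar1a for Ccnd3 and Impdh1 for Ccne1, and it was Srsf1 for Ccna2, Nsd2 for Ccnb2, Khdrbs1 for Ccnb1 and Cenpl for Ccng2, with r of 0.985 to 0.9994. For Ccne2 and Ccnf, whose groups overlapped with Thr starvation, it was a pseudogene (Glud-ps, 0.951, and Gm8806, 0.966).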
